A study of Mus musculus with 30 samples.

Results

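The genes described here are 10 transcription factor genes: Fos, Fosb, Fosl1 and Fosl2, which encode the FOS family; Jun, Junb and Jund, which encode the JUN family; Atf3, Egr1 and Myc. They were chosen by name, as the FOS and JUN family, ATF3, EGR1 and MYC, and are 10 of the 78334 gene identifiers in the deposited table. All 10 passed the filter on low counts, set over all groups of a run, in both sequencing runs. FOS and JUN proteins pair through leucine zippers to form the AP-1 factor, ATF3 is a related leucine zipper protein that pairs with JUN proteins, EGR1 is a zinc finger factor, and MYC pairs with MAX to drive genes of ribosome synthesis and growth. In smooth muscle many of these genes are immediate-early genes: growth factors such as PDGF-BB switch them on through the ERK pathway without new protein synthesis, usually as a short pulse. FOSL1 and MYC stay on longer than FOS, and EGR1 raises NAB2, a corepressor that acts back on EGR1.

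RNA was sequenced from 30 libraries in 9 groups of cultured cells labelled as murine aortic smooth muscle, in sequencing runs 2 and 3. Run 2 held untreated cells with a control antisense oligonucleotide of the GapmeR type, which recruits RNase H to the RNA it binds (n = 2), with an oligonucleotide for total CASC15, a long noncoding RNA (n = 2), with a control plasmid (n = 3), or with a plasmid for total CASC15 overexpression (n = 3). Run 3 held 5 groups of 4 libraries: control oligonucleotide with no treatment, with angiotensin II or with PDGF-BB, and knockdown of long CASC15 with no treatment or with angiotensin II. Per the labels, cells in every group went 48 h without serum and were transfected for at least 24 h, and treatments ran for 24 h. Angiotensin II was used at 10 ng/ml and PDGF-BB at 10 to 30 ng/ml, both as the human protein. Levels with a treatment were therefore read at 24 h, not in the first hours. The growth protocol names both mouse and rat cells, the labels do not say whether libraries came from separate cultures, and p-values then measure only the spread between these libraries, which may be technical. What "total" and "long" mean for the CASC15 transcripts is not given in the labels.

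Total expected counts per library were 18007199 to 21881959 in run 2 and 15771490 to 30362047 in run 3. Of 12 smooth muscle markers, 6 to 9 had a mean of at least 1 CPM (read counts brought to a common library size with TMM factors) in each group: Acta2 was at 96.5 to 441 CPM, but Tagln reached at most 3.45 CPM, Myh11 6.67 CPM and Cnn1 0.224 CPM in any library. Fibroblast markers summed to 2640 to 4290 CPM and endothelial markers to 0.356 to 10.1 CPM. The epithelial markers Cdh1 (35.1 to 195 CPM) and Krt19 (75.1 to 397 CPM) were present, while Epcam and Krt14 stayed under 1 CPM and Cldn4 was at 0. The gene read as CASC15, 2610307P16Rik, which no table used here pairs with that name, was at 604 to 916 CPM in overexpression libraries and 4.03 to 8.69 CPM in plasmid controls. It fell by 0.95 on the log2 scale in untreated long CASC15 knockdown (adjusted p = 0.000832 by edgeR's quasi-likelihood test). By the same test it fell by 0.79 in that knockdown under angiotensin II (0.00372), and by 0.62 with PDGF-BB in control cells (0.0101). In the libraries labelled total CASC15 knockdown it did not fall: its log2 fold change was 0.36 (adjusted p = 0.739, same test). Batch P19, which holds replicate 4 of each run 3 group and replicate 3 of the plasmid groups of run 2, stood apart for several of the 10 genes, and its values are given where they bear on a result.

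In untreated control cells of run 3, Jund was the most abundant of the 10 genes per length and Fosb the least. Per kilobase of exon, the level of Jund was 71.6 ± 5.7 CPM (SD, n = 4), that of Junb 32.8 ± 7.09 and that of Myc 28.4 ± 2.47. Junb and Myc did not differ beyond their spread. Fosl2, which encodes FRA-2, followed at 16 ± 0.887 CPM per kilobase, ahead of Egr1 at 7.76 ± 1.9 and Jun at 5.15 ± 1.14, genes whose spreads overlapped. Fos at 1.39 ± 0.372 and Atf3 at 0.932 ± 0.166 CPM per kilobase also had overlapping spreads, and Fosl1, which encodes FRA-1, and Fosb were lowest, at 0.24 ± 0.0923 and 0.0925 ± 0.0478. Fosb rested on 6 to 18 counts per library and Fosl1 on 6.38 to 21.4, so their changes are the least precise here. Fosl2 was thus the main message of the FOS family in resting cells.

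**Figure D1:**
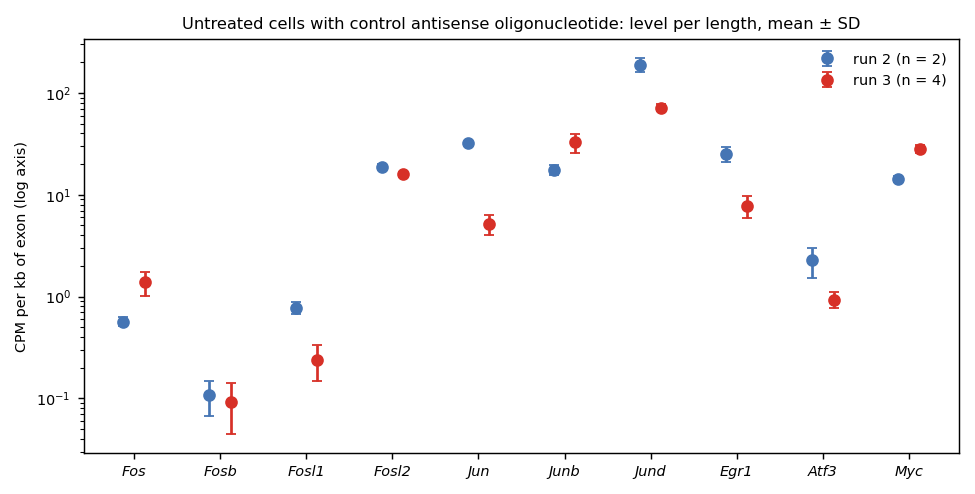
Level per length of each gene in untreated cells with the control antisense oligonucleotide, as CPM per kilobase of exon on a log axis, with points at the mean and bars at 1 SD for run 2 (n = 2) and run 3 (n = 4). Jund is highest and Fosb lowest in both runs, and Jun sits at 32.4 in run 2 against 5.15 in run 3.

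The same untreated control group was sequenced in run 2, where several levels differed from run 3. The Jun level was 103 CPM in both libraries of run 2 and 11.2 to 19.4 CPM in run 3. Egr1 was at 99 and 126 CPM in run 2 against 24.1 to 44.4 CPM, and Jund at 283 and 352 CPM against 110 to 132 CPM. In the other direction, Myc was at 37 and 40.5 CPM in run 2 against 70.9 to 83.1 CPM in run 3. None of these ranges met. The runs were normalized separately, no test was made across them, and the run cannot be told apart from anything else that changed with it. The share of counts from mitochondrial genes was 0.764% to 2.16% in run 2 libraries and 1.73% to 3.33% in run 3 libraries, ranges that overlapped. Within run 3 it was lowest in P19 in all 5 groups.

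PDGF-BB is a mitogen of smooth muscle, and control cells with and without it were set against each other to see how the 10 genes stood after 24 h. Egr1, Fosl1, Fos, Junb and Myc rose and Fosl2 fell, while Jun, Jund, Atf3 and Fosb did not pass the test. That is 6 of 10, with 5 higher and 1 lower. Among all 15103 genes tested, 43.6% were called in this comparison, 23.6% higher and 20% lower, so the count of 6 by itself says little about these 10 genes. Without batch P19 the count was again 6 of 10, where 48.9% of all genes were called. Called means an adjusted p below 0.05. Each adjusted p is edgeR's (quasi-likelihood test, Benjamini-Hochberg over all genes tested) unless another tool is named.

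Of the 4 FOS family genes, 2 rose, 1 fell and Fosb was not called. Fosl1 was at 0.252, 0.487, 0.499 and 0.711 CPM in the untreated controls and at 3.98, 3.24, 4.95 and 7.74 CPM under PDGF-BB (batches P16 to P19 in order). Every treated library was above every control. The log2 fold change of 3.32 ± 0.525 (SE), a fold of 10, was the largest among the 10 genes (adjusted p = 3.77e-05). Fos, whose protein is the short-lived partner of JUN, was at 3.11, 2.6, 4.54 and 2.81 CPM untreated and 8.02, 6.52, 4.16 and 5.7 CPM under PDGF-BB. The groups overlapped through P18, the batch in which Fos was lower with PDGF-BB than without. It changed by 0.9 ± 0.263 on the log2 scale (adjusted p = 0.00863), and was higher in 3 of 4 batches. Fosl2 went the other way, from 164, 160, 152 and 145 CPM untreated to 120, 125, 114 and 102 CPM, with no overlap, and was lower in 4 of 4 batches. It fell by 0.43 on the log2 scale (SE 0.0646, adjusted p = 2.09e-05). Fosb, at 0.0509 to 0.632 CPM under PDGF-BB, was too low to resolve: its log2 fold change of -0.9 had an interval of -2.17 to 0.37 at 95% confidence. Per kilobase of exon, Fosl1 reached 2.45 ± 0.969 CPM and Fos 2.59 ± 0.685 CPM, still below the 11.9 ± 1.04 CPM of Fosl2.

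Of the JUN family, only Junb was called. JUNB is a weaker activator than JUN and pairs with the same FOS proteins. Junb was at 80.7, 83.9, 85.8 and 51.1 CPM untreated and at 130, 126, 128 and 84.6 CPM under PDGF-BB. The P19 library was the lowest of both groups, and the groups overlapped only because its treated value lay below the highest control. The log2 fold change was 0.64 ± 0.18 (adjusted p = 0.00808), and within batches the log2 ratio was 0.57 to 0.72, higher in 4 of 4. Jun and Jund were nearly level: Jun was at 11.2 to 19.4 CPM untreated and 14.7 to 18.4 CPM treated, with a log2 fold change of -0.01 and a 95% interval of -0.36 to 0.34. For Jund the log2 fold change was -0.06, with an interval of -0.32 to 0.19. Atf3, a stress-induced gene, was at 1.52 to 2.37 CPM untreated and 1.63 to 4.02 CPM treated, and its log2 fold change of 0.33 (interval -0.37 to 1.03) was not called.

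Egr1 and Myc rose in every batch. Egr1 was at 24.1, 33.1, 44.4 and 37.7 CPM untreated and at 163, 175, 197 and 170 CPM under PDGF-BB. The groups were far apart. The log2 fold change was 2.34 ± 0.247, a fold of 5.07 (adjusted p = 8.28e-07), and Egr1 thereby passed from 7.76 ± 1.9 to 39.3 ± 3.31 CPM per kilobase. Myc was at 82.9, 71.8, 70.9 and 83.1 CPM untreated and 120, 110, 113 and 137 CPM treated, without overlap. This was a log2 fold change of 0.64 ± 0.154 (adjusted p = 0.00255), with Myc higher in 4 of 4 batches.

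**Figure D2:**
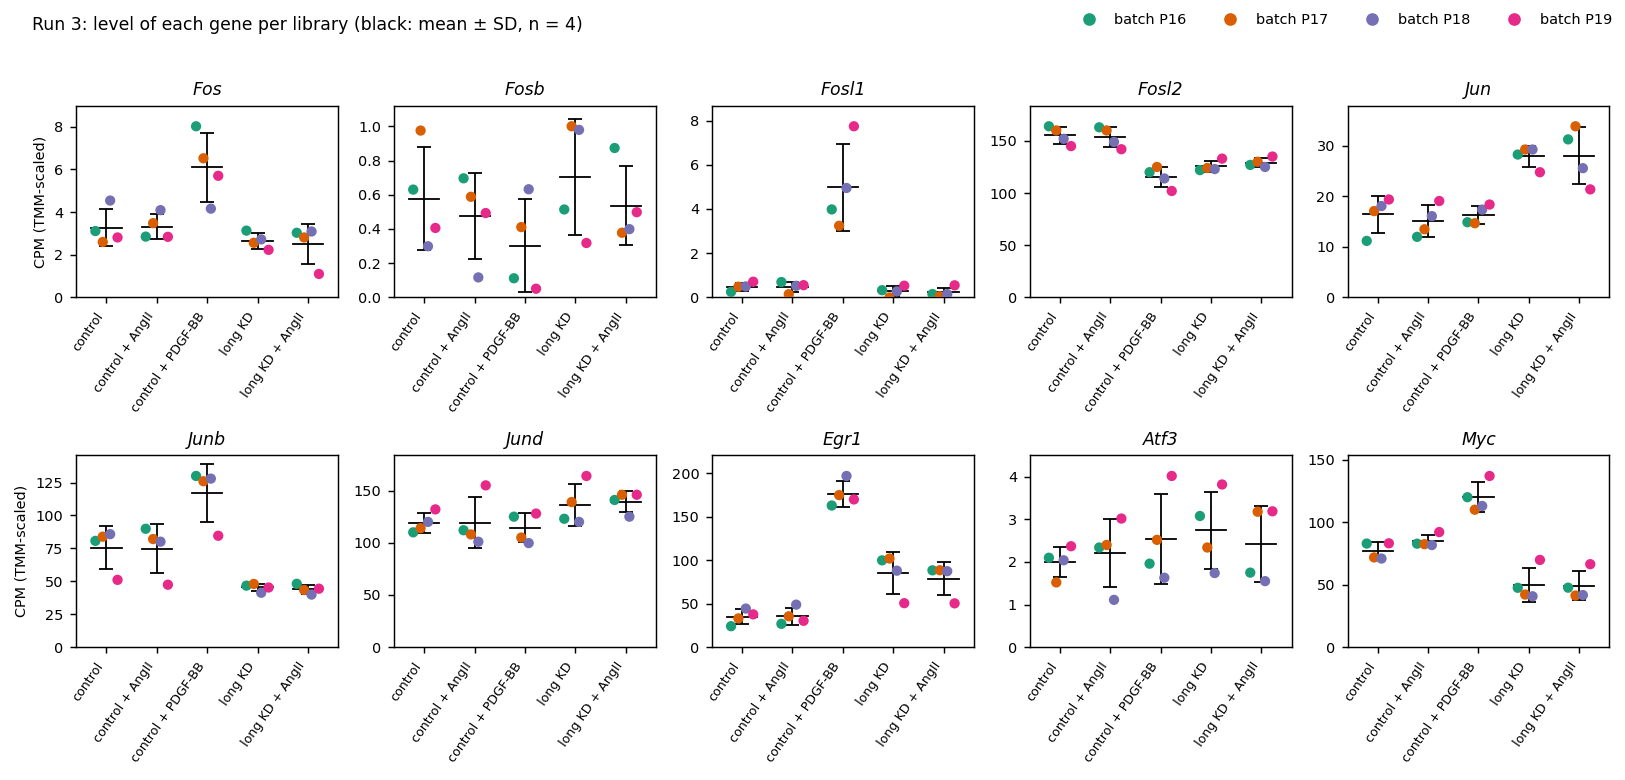
CPM of each gene in the 20 libraries of run 3 on linear axes from 0, one panel per gene, with points coloured by batch and black lines at the group mean and 1 SD (n = 4). Egr1 sits at 163 to 197 with PDGF-BB and at 24.1 to 44.4 in untreated controls, and long CASC15 knockdown (long KD) lies between them, at 50.6 to 102 without treatment.

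Fos and Junb rose together while Fosl2 fell and Jun stayed level, so the bases just upstream of these 4 genes are shown, to compare the elements their promoters carry. Windows of 300 bases, 250 before and 50 after the start site, came from the RefSeq table (GRCm38.p6) for 7 of the 10 genes. The table held none for Fosl1 and Myc. Egr1 was left out before the search, so the motif counts say nothing about its promoter. The lines give the 150 bases before the annotated start, read 5′ to 3′ on the gene's strand, with motif matches in capitals.
Fos, chr12:85473740-85473889, plus strand: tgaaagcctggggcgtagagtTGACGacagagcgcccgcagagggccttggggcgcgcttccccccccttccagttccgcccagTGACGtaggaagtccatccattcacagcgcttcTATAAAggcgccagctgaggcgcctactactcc
Junb, chr8:84978749-84978898, minus strand: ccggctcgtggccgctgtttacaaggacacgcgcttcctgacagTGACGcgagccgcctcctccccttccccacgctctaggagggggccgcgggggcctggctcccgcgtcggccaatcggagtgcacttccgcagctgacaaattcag
Jun, chr4:95052223-95052372, minus strand: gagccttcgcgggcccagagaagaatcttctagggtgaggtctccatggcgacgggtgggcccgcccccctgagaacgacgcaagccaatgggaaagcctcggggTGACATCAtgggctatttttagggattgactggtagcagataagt
Fosl2, chr5:32136322-32136471, plus strand: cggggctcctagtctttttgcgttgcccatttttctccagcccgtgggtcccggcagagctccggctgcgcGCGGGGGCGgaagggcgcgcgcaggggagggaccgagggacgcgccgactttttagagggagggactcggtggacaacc
The capitals in Fos are 2 cores of the cyclic AMP element (CRE), TGACG, bound by CREB and ATF proteins, and a TATA box, TATAAA. Junb has 1 such core, and its TATAAA starts at the annotated start and so lies outside the line shown. Jun carries TGACATCA, an AP-1 site of CRE type, and Fosl2 carries GCGNGGGCG, the EGR site. In all, 8 motifs were searched on both strands of the whole windows; TGACATCA was added after the Jun sequence had been seen. TGACG was found in 4 of the 7 windows (Fos, Fosb, Junb and Atf3) and in 20.8% of all 32851 windows of that length. GCGNGGGCG was found in Fosb and Fosl2 and in 5.55% of all windows, TGACATCA in Jun and in 3.62%, and TATAAA in Fos and Junb and in 13.6%. The AP-1 site TGANTCA (7.81% of all windows), the full CRE TGACGTCA (1.79%), the MYC E-box CACGTG (7.15%) and the CArG box of serum response factor (1.63%) were in none of the 7. TGACG is part of TGACGTCA, so those matches can overlap. These are matches of letters in a short window and show neither binding nor a cause.

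Against angiotensin II instead of no treatment, PDGF-BB again gave 6 of 10 called, 5 higher and 1 lower, where 42.4% of all genes were called. Both comparisons use the same PDGF-BB libraries, so the second is not separate evidence. Against angiotensin II the log2 fold changes were 2.32 for Egr1 (adjusted p = 1.06e-06), 3.39 for Fosl1 (4.67e-05), 0.88 for Fos (0.0114), 0.64 for Junb (0.00776), 0.5 for Myc (0.0132) and -0.42 for Fosl2 (3.32e-05). The call for Fos ended without the P16 library of PDGF-BB (log2 fold change 0.71, adjusted p = 0.0517). That for Myc ended without the P19 library of PDGF-BB (0.41, 0.066).

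Lists of genes that work with these factors were counted in the same comparison of PDGF-BB with no treatment, beside the 23.6% of all genes called higher and the 20% called lower. Of 25 textbook MYC targets, which act mostly in ribosome synthesis and metabolism, 22 rose and 1 fell (Npm1, named after its value was seen), and the median log2 fold change was 0.71 against -0.02 over all genes. Srm, spermidine synthase, went from a mean of 11.8 to 32.9 CPM (log2 fold change 1.48 ± 0.23, adjusted p = 3.8e-05), and Nop56, a nucleolar protein, from 67.2 to 151 CPM (1.17 ± 0.0771, 4.92e-10). Cad, the enzyme that starts pyrimidine synthesis, rose by 1.08, and Nme1, a nucleotide kinase, by 1.04. The MAX network itself was mixed, with 2 of 11 higher and 4 lower. Mxd3, a MAX partner known in dividing cells, went from 1.63 to 27 CPM (log2 fold change 4.02 ± 0.565, adjusted p = 1.95e-05). Mxd1, Mxi1 and Mnt, which like Mxd3 compete with MYC for MAX, fell by 0.37, 0.26 and 0.19 on the log2 scale. Mycn at 1.57 and Mga at -0.19 complete the count, and were named after their values were seen.

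Of textbook AP-1 targets, 10 of 15 tested rose and 0 fell, with a median log2 fold change of 1.09. With the replicate block, which fits the labelled batch as a term, 11 rose and 1 fell, Hmox1 (-0.39), named after its value was seen. The 4 with the largest change among those called at a mean of at least 5 CPM were Spp1, Mmp3, Mmp13 and Timp1. Spp1, osteopontin, went from 3.18 to 57.8 CPM (log2 fold change 4.16 ± 0.497, adjusted p = 3.8e-06). Mmp3, stromelysin, went from 23 to 186 CPM (3.01 ± 0.305, 5.66e-07), Mmp13, a collagenase, from 23.8 to 66.5 CPM (1.48, 0.0356), and Timp1, an inhibitor of these proteases, from 10.1 to 27.5 CPM (1.44, 2.85e-08). Of the EGR family and its NAB corepressors, 4 of 5 tested rose: Nab2 from 71.9 to 151 CPM (log2 fold change 1.08 ± 0.0879, adjusted p = 8.94e-09), Nab1 by 0.72, and, named after their values were seen, Egr2 from 0.531 to 4.48 CPM and Egr3 from 0.71 to 5.08 CPM. Textbook EGR1 targets split, with 3 of 10 higher and 2 lower and a median of -0.1: Nab2, Tgfb1 (0.68) and Fgf2 (0.63) rose, and Pdgfa fell by 0.56. Pdgfb, at -0.47, was the other, named after its value was seen.

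Other immediate-early genes tested numbered 20, of which 12 rose and 3 fell, with a median of 0.38. Nr4a1, an orphan nuclear receptor, rose by 1.66 (3.77 to 11.9 CPM), Dusp6, a phosphatase that dampens ERK, by 1.3, Ier2 by 1.28 and Ptgs2, cyclooxygenase-2, by 1.16. The 3 that fell, named after their values were seen, were Ccn2 (-1.07), Gadd45b (-0.78) and Dusp1 (-0.54). Other leucine zipper partners of AP-1 had 1 of 10 tested higher, Atf4 (0.76), and 3 lower, Maf (-1.34), Jdp2 (-0.4) and Atf7 (-0.25). Of 8 serum response factor cofactors and ternary complex factors, which carry the ERK signal to immediate-early promoters, Elk4 rose by 0.46 and Ets2 fell by 0.41. With the block, 54.5% of all genes were called, 28.3% higher and 26.2% lower, and most list counts moved by 1 or 2 genes. MYC targets then had 23 higher and 1 lower, the MAX network 2 and 6, other immediate-early genes 13 and 3, and leucine zipper partners 2 and 4. EGR1 targets had 3 and 3, the ternary complex list 2 and 1, and the EGR family with NAB genes 4 and 0. These lists and members were chosen with earlier results of these data known.

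Markers of several cell types moved with PDGF-BB as well. The marker counts stand beside 23.6% of all genes called higher and 20% called lower, or 28.3% and 26.2% with the block. A count alone therefore says little about the markers. Of 6 fibroblast markers tested, 2 rose and 3 fell: Dcn went from 1590 to 664 CPM (log2 fold change -1.26) and Pdgfra from 15.1 to 3.1 CPM (-2.27), while Col1a1 rose by 0.49. Of 11 smooth muscle markers, 2 rose and 2 fell, with Acta2 going from 212 to 110 CPM (-0.94) and Smtn from 46.7 to 95.5 CPM (1.03). Of 2 epithelial markers tested, Cdh1 rose by 0.63, and Krt19 went from 188 to 289 CPM (0.62, adjusted p = 0.055, or 0.000855 with the block). With the block, fibroblast markers had 1 higher and 3 lower and epithelial markers 2 higher. The summed levels with and without PDGF-BB were 3040 to 4290 and 3440 to 3940 CPM for fibroblast markers, 1420 to 1750 and 1600 to 1990 CPM for smooth muscle markers, and 442 to 488 and 273 to 326 CPM for epithelial markers. Endothelial markers summed to 0.356 to 1.05 and 1.25 to 2.76 CPM, with Pecam1 lower and Tie1 at 0, and 0 of 2 leukocyte markers tested were called. The mitochondrial share was lower with PDGF-BB than without in 4 of 4 batches, at 2.73%, 2.59%, 2.81% and 1.73% against 2.97%, 2.96%, 3.01% and 2.65% (P16 to P19). The part of these markers and of this share in the result was not tested. In bulk samples, fewer cells of a type and less RNA per cell cannot be told apart.

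**Figure D3:**
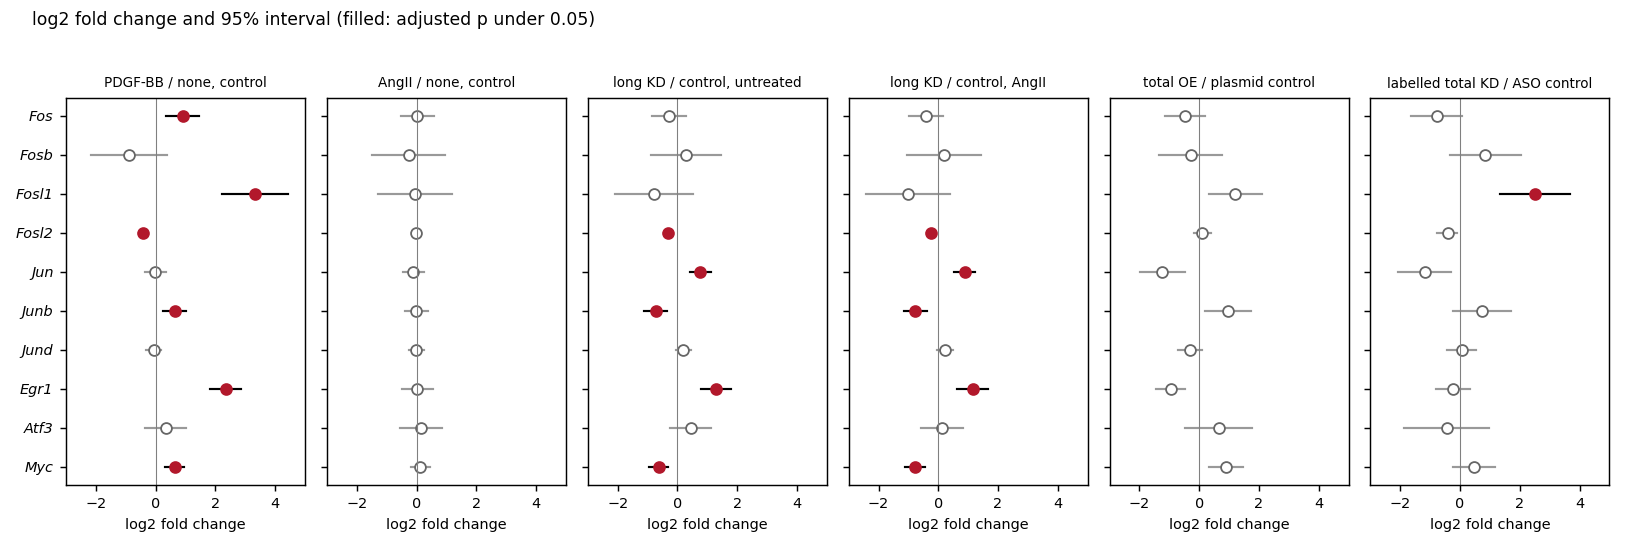
Log2 fold change of each gene in 6 comparisons, with bars at the 95% interval and filled points where the adjusted p was under 0.05 (edgeR). With PDGF-BB, Fosl1 lies at 3.32 and Egr1 at 2.34, and with angiotensin II in control cells all 10 lie between -0.26 and 0.14.

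Angiotensin II, a vasoactive peptide, was given to control cells and to cells with long CASC15 knockdown. None of the 10 genes was called in either, nor for angiotensin II averaged over both cell states. In control cells the log2 fold changes ran from -0.26 (Fosb) to 0.14 (Atf3), and in knockdown cells from -0.38 (Fosb) to 0.04 (Fosl2). Egr1 was at 26.8, 35.5, 48.9 and 30.3 CPM with angiotensin II against 24.1, 33.1, 44.4 and 37.7 CPM without, a log2 fold change of 0.03 with a 95% interval of -0.49 to 0.54. For Myc the change was 0.13 (interval -0.19 to 0.46) and for Fosl2 -0.01 (-0.15 to 0.12), the tightest bound. By edgeR's quasi-likelihood test 0 of 10 genes had an unadjusted p under 0.05 in these comparisons, and DESeq2 called 0 of 10. The background was also flat: 0% of the 15103 genes were called by edgeR in control cells, in knockdown cells, averaged over both, and in the interaction of treatment and knockdown. At an unadjusted p under 0.05 there were 156, 174, 159 and 166 genes, and DESeq2 called 1, 0, 0 and 2. Those gene numbers were 1.03%, 1.15%, 1.05% and 1.1% of all genes. With no effect at all, a share of 0.05 of p-values would fall under 0.05, so the test was cautious here. The absence of small p-values among the 10 genes therefore adds little. Times before 24 h were not measured.

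The libraries labelled long CASC15 knockdown were compared with the control oligonucleotide, to see how these genes stood in them. Egr1 and Jun rose, and Junb, Myc and Fosl2 fell, without treatment and also under angiotensin II. That is 5 of 10 in each, 2 higher and 3 lower. Among all genes 25% were called without treatment (12.3% higher, 12.8% lower) and 26.7% under angiotensin II (13.4% higher, 13.3% lower). The median over the 10 genes was -0.05 and -0.06 on the log2 scale, against 0.02 and 0.01 over all genes, with members moving in both directions. The 2 comparisons share no library.

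Egr1 was at 99.9, 102, 88 and 50.6 CPM in untreated knockdown cells and 24.1, 33.1, 44.4 and 37.7 CPM in their controls, without overlap. The log2 fold change was 1.29 ± 0.242, a fold of 2.44 (adjusted p = 0.000791). Under angiotensin II the values were 88.4, 88.5, 87.4 and 50.4 CPM against 26.8, 35.5, 48.9 and 30.3 CPM, a log2 fold change of 1.15 ± 0.243 (adjusted p = 0.00199). The P19 library was the lowest in both knockdown groups, and within batches the log2 ratio was 0.42 to 2.03 without treatment and 0.73 to 1.7 under angiotensin II. Jun, the most potent activator of its family, was at 28.3, 29.3, 29.3 and 24.8 CPM in untreated knockdown against 11.2, 17.1, 18.1 and 19.4 CPM, again without overlap. The log2 fold change of Jun was 0.76 ± 0.166 (adjusted p = 0.00201), and 0.89 ± 0.168 under angiotensin II (0.000587). Within batches its log2 ratio was 0.35 to 1.3 and 0.16 to 1.34, higher in 4 of 4 in each comparison.

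Junb went the opposite way to Jun. It was at 46.7, 48, 41.3 and 45.3 CPM in untreated knockdown and 80.7, 83.9, 85.8 and 51.1 CPM in controls. The groups did not overlap, but the P19 control was close to the knockdown libraries. Junb fell by 0.73 on the log2 scale (SE 0.183, adjusted p = 0.00657), and by 0.77 (SE 0.184, 0.00472) under angiotensin II, where the P19 control at 47.4 CPM lay below the highest knockdown library at 48.1 CPM. Myc, the growth regulator, was at 47.5, 42.1, 40.7 and 69.8 CPM in untreated knockdown against 82.9, 71.8, 70.9 and 83.1 CPM, and fell by 0.63 (SE 0.156, adjusted p = 0.00609). Under angiotensin II it was at 47.6, 41.3, 41.7 and 66.4 CPM against 82.8, 82.4, 81.7 and 92.1 CPM, and fell by 0.78 (SE 0.156, 0.0011). In both knockdown groups P19 was the highest library for Myc, yet below every control. Junb and Myc were lower in 4 of 4 batches in each comparison, with log2 ratios of -1.05 to -0.09 for Junb and -0.99 to -0.25 for Myc. The smallest within-batch change was in P19 for all 5 called genes in both comparisons, with log2 ratios without treatment of 0.42 for Egr1, 0.35 for Jun, -0.17 for Junb, -0.25 for Myc and -0.12 for Fosl2. Under angiotensin II the P19 ratios were 0.73, 0.16, -0.09, -0.47 and -0.08 in the same order. Fosl2 fell by 0.3 (SE 0.0645, adjusted p = 0.00158) and by 0.25 (SE 0.0645, 0.00661), from 145 to 164 CPM to 122 to 133 CPM without treatment, and was lower in 4 of 4 batches in each comparison.

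Fos, Fosb, Fosl1, Jund and Atf3 were not called in untreated knockdown, with log2 fold changes of -0.29, 0.29, -0.77, 0.19 and 0.44. Fosl1 rested on 0 to 10.1 counts per knockdown library, where a count of 0 allows up to 3 counts. Under angiotensin II, Jund became called with the replicate block (log2 fold change 0.24, adjusted p = 0.0149, 6 of 10 genes called where 41.3% of all genes were; without treatment the block called 40.6% of all genes). Jund was at 141, 146, 125 and 146 CPM against 112, 108, 101 and 155 CPM, and the single high control was P19, without which the log2 fold change was 0.38 (adjusted p = 0.0177). With all P19 libraries left out, Fosl1 was called under angiotensin II as well (-1.83, adjusted p = 0.0463). That made 7 of 10 where 39.9% of all genes were called, beside 5 of 10 and 40% without treatment. The added Fosl1 call rested on 3.47, 1.08 and 3.34 counts in knockdown against 10.85, 3.27 and 8.73 in controls (P16 to P18). Fosl1 passed the filter over the whole run, but not when only the compared groups were fitted. Whether the knockdown changed the response to angiotensin II was tested by the interaction, which called none of the 10, with values from -0.32 (Atf3) to 0.12 (Jun) and 95% intervals of -0.85 to 0.58 for Egr1 and -0.62 to 0.3 for Myc. By edgeR 0 of 10 had an unadjusted p under 0.05 there, where 1.1% of all genes did, and DESeq2 called 0 of 10.

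Of the textbook MYC targets, 0 of 25 rose and 8 fell in untreated knockdown, and 0 rose and 10 fell under angiotensin II, with medians of -0.2 and -0.23 against 0.02 and 0.01 over all genes. Of all genes, 12.8% and 13.3% were lower. With the replicate block 16 and 17 of the MYC targets fell, where 20.6% and 20.9% of all genes did, and 20% and 20.4% of all genes rose. Nme1 fell by 0.78 (52.8 to 30.9 CPM, adjusted p = 0.0451), Odc1, ornithine decarboxylase, by 0.68 (60.8 to 37.9 CPM, 0.0102), Rrp12 by 0.53 and Bop1 by 0.45, both proteins of ribosome assembly. In the MAX network, Mxd1 rose by 0.47 and Mxi1 by 0.18, and Mycl, named after its value was seen, had a log2 fold change of 1.54 at a mean of 2.32 CPM. AP-1 targets were 1 of 15 higher and 6 lower in each comparison, and with the block 9 were lower without treatment and 8 under angiotensin II. Without treatment, Ccl2, a chemokine, went from 24.2 to 6.02 CPM (log2 fold change -2.01 ± 0.219, adjusted p = 1.87e-06), Plaur, the urokinase receptor, from 13.9 to 6.62 CPM, Mmp3 from 23 to 11.7 CPM and Plau, urokinase, from 30.3 to 18.2 CPM. The single gene that rose, named after its value was seen, was Phlda1 (0.62).

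EGR partners did not move as one in untreated knockdown. Nab2 rose by 0.55 ± 0.0875 (71.9 to 105 CPM, adjusted p = 9.72e-05), while Nab1 fell by 0.35, and Egr2 and Egr3, named after their values were seen, were higher at 1.78 and 1.64 CPM against 0.531 and 0.71 CPM. Of 10 textbook EGR1 targets, Nab2 and F3, tissue factor (0.85), rose, and Pdgfb, Icam1 and Thbs1 fell, Pdgfb from 11.6 to 2.35 CPM (-2.3 ± 0.204, adjusted p = 1.1e-07), Icam1, an adhesion molecule, by 1.34, and Thbs1, named after its value was seen, by 0.47. Other immediate-early genes, 7 of 20 called where 25% of all genes were, had 1 higher, Nr4a2 (0.52), and 6 lower, among them Gadd45b (-0.86), Klf10 (-0.56) and Ier5 (-0.55), and under angiotensin II 0 were higher and 7 lower. Among leucine zipper partners, Atf7 rose by 0.63 and Jdp2, Cebpb and Atf2 fell by 0.48, 0.35 and 0.22, and of the ternary complex factors and cofactors Ets2 (0.48) and Elk1 (0.47) rose and Elk3 (-0.25) and Ets1 (-0.19) fell. With the block, untreated knockdown had 2 higher and 9 lower among other immediate-early genes, 1 and 5 among leucine zipper partners, 3 and 2 among EGR and NAB genes, 3 and 3 among EGR1 targets, and 3 and 2 in the ternary complex list. Under angiotensin II the blocked counts were 2 and 10, 1 and 4, 3 and 2, 2 and 3, and 3 and 1 in the same order, and these counts stand beside the 40.6% and 41.3% of all genes called with the block. The MAX network had 3 and 0 without treatment and 3 and 1 under angiotensin II.

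Cell type markers moved with the knockdown too. Among all genes, 25% were called without treatment and 26.7% under angiotensin II, or 40.6% and 41.3% with the block. The marker counts stand beside these shares. Both epithelial markers tested fell in each comparison, Cdh1 by 1.28 without treatment and Krt19 by 0.89, and their summed level was 112 to 238 CPM against 273 to 326 CPM, and 120 to 221 against 282 to 343 CPM under angiotensin II. Of 6 fibroblast markers, 2 rose and 2 fell without treatment and 1 rose and 2 fell under angiotensin II. Pdgfra went from 15.1 to 47.4 CPM (1.66), Pi16 from 44.8 to 12.6 CPM (-1.83) and Col1a1 from 2150 to 1380 CPM (-0.64) without treatment, and the fibroblast sum was 3170 to 3560 against 3440 to 3940 CPM. Under angiotensin II that sum was 3070 to 3610 against 3590 to 3910 CPM. Smooth muscle markers had 2 higher and 3 lower of 11 without treatment, and 2 and 4 under angiotensin II, with sums of 1310 to 1680 against 1600 to 1990 CPM and 1340 to 1650 against 1620 to 1920 CPM. Endothelial markers stayed low, at 1.96 to 3.88 CPM in sum against 1.25 to 2.76 CPM and 2.29 to 4.21 against 0.925 to 2.28 CPM, although Vwf rose (0.144 to 0.688 CPM without treatment) and Tie1 was at 0. Of 2 leukocyte markers tested, 0 were called without treatment and Cd14 rose by 0.39 under angiotensin II. With the block, smooth muscle markers had 2 higher and 6 lower without treatment and 3 and 5 under angiotensin II, fibroblast markers 3 and 2 in each, and endothelial markers 2 higher under angiotensin II. The part of these markers in the results was not tested.

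**Figure D4:**
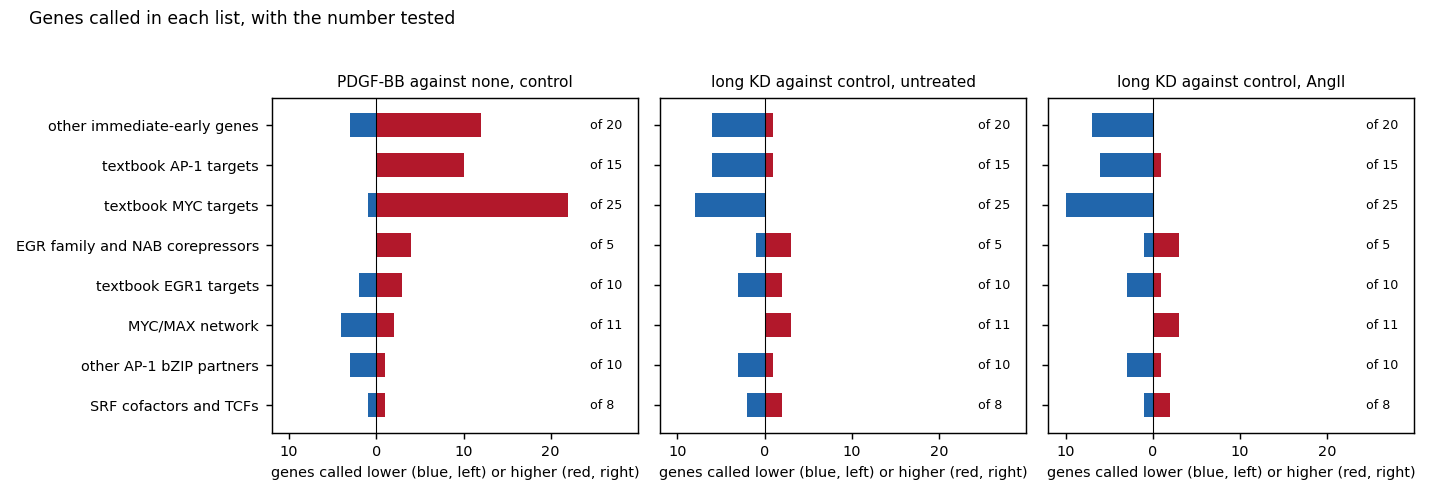
Number of genes called lower (to the left) and higher (to the right) in each list, with the number tested, for PDGF-BB in control cells and for long CASC15 knockdown (long KD) without treatment and under angiotensin II. Of 25 MYC targets, 22 were higher with PDGF-BB, and 8 and 10 were lower in knockdown.

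PDGF-BB and long CASC15 knockdown can be read side by side without shared libraries by taking the knockdown under angiotensin II. Egr1 rose in both (log2 fold change 2.34 and 1.15), Fosl2 fell in both (-0.43 and -0.25), Junb and Myc rose with PDGF-BB (0.64 and 0.64) and fell with knockdown (-0.77 and -0.78), and Jun was called only with knockdown (-0.01 and 0.89). Fosl1 had values of 3.32 and -1.02, of which the second was not called. The gene read as CASC15, 2610307P16Rik, was itself lower in both (-0.62, adjusted p = 0.0101, and -0.79, 0.00372). The difference between these effects was not tested.

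In the CASC15 overexpression libraries of run 2, 0 of the 10 genes were called against the control plasmid by edgeR's quasi-likelihood test, where 1.65% of all 15350 genes were, although 5 of the 10 had an unadjusted p under 0.05, as did 15% of all genes. DESeq2 called 3, Egr1, Jun and Myc, where it called 4.71% of all genes. With the replicate block 6 were called, Fosl1, Junb, Jund, Egr1, Atf3 and Myc, where 17.7% of all genes were. Egr1 was at 51.3, 62.9 and 56.4 CPM with overexpression and 129, 131 and 72.5 CPM with the control plasmid (batches P17 to P19), without overlap. Egr1 had a log2 fold change of -0.96 ± 0.212, with an adjusted p of 0.0606, or 0.021 with the block. Leaving out the P19 plasmid control gave -1.19 (adjusted p = 0.0019). Myc was at 107, 124 and 138 CPM against 44.6, 70.3 and 84.2 CPM, also without overlap. The log2 fold change of 0.89 ± 0.25 (adjusted p = 0.132, or 0.00167 with the block) was positive in 3 of 3 batches. Without the P19 plasmid control it was 1.1 (0.0441), and without both P19 libraries 1.01 (0.0892), where 2 of the 10, Egr1 and Jun, and 5.57% of all genes were called.

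Jun was at 25.4, 20.7 and 31.7 CPM with overexpression and 77.4, 70.1 and 35.2 CPM with the control plasmid, a log2 fold change of -1.23 ± 0.328 (adjusted p = 0.114, and 0.117 with the block). Without the P19 plasmid control it was -1.5 (0.0168). Fosl1 was at 8.29, 11.2 and 16.8 CPM against 4.01, 4.62 and 7.14 CPM (1.2 ± 0.394, adjusted p = 0.189, 0.00308 with the block). Junb was at 74.3, 122 and 177 CPM against 42.7, 58.6 and 89.9 CPM (0.97 ± 0.348, 0.235, 0.00544 with the block). For Junb the groups overlapped, and both genes were higher in 3 of 3 batches and highest in P19 of each group. Jund had a log2 fold change of -0.31 (adjusted p = 0.454, 0.0302 with the block) and Atf3 of 0.66 (0.581, 0.0428 with the block).

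Of 25 MYC targets 0 were called with overexpression, and 17 rose with the block (9.4% of all genes rose with it and 8.33% fell), with a median log2 fold change of 0.38 in the fit without it against 0 over all genes. AP-1 targets were 1 of 15 higher, Cd44, a hyaluronan receptor, at 0.66 (146 to 231 CPM, adjusted p = 0.021), and with the block 8 rose and 2 fell. Other immediate-early genes went from 0 called of 20 to 6 higher and 1 lower with the block. Among leucine zipper partners Cebpb rose by 1.13 ± 0.19 (84.5 to 185 CPM, adjusted p = 0.0202). Of EGR1 targets, Icam1 rose by 1.87 (10.3 to 37.7 CPM, 0.00986) and Pdgfa fell by 0.91 (70 to 37.4 CPM, 0.00412). With the block the counts higher and lower were 3 and 1 for leucine zipper partners, 3 and 1 for the MAX network, 2 and 2 for EGR1 targets, 1 and 0 for EGR and NAB genes, and 0 and 1 for the ternary complex list. The summed level of 7 leukocyte markers, of which Cd14 alone had a mean of at least 1 CPM in these 2 groups, was 18.1 to 23.5 CPM with overexpression and 11.4 to 12.8 CPM with the plasmid control. Ptprc, the leukocyte common antigen, was at most 0.0998 CPM in any library. Cd14 rose by 0.81 (adjusted p = 0.0262), and no other marker of the 5 lists was called. With the block, 2 leukocyte, 1 fibroblast and 1 epithelial marker were higher and 1 smooth muscle, 2 fibroblast and 1 epithelial marker were lower. The mitochondrial share was 0.764%, 1.164% and 0.991% with overexpression and 1.263%, 1.284% and 1.105% with the control plasmid (P17 to P19). The part of these markers and of this share was not tested.

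In the libraries labelled total CASC15 knockdown, Fosl1 was the 1 gene of 10 called against the control oligonucleotide, where 2.07% of all genes were. It was at 5.01 and 12.9 CPM against 1.43 and 1.73 CPM, a log2 fold change of 2.51 ± 0.518 (adjusted p = 0.0436). Each arm has 2 libraries, so leaving one out leaves a lone library that is assumed to vary like the other run 2 groups. Without either control the log2 fold change was about as large, at 2.37 and 2.64, but not called (adjusted p = 0.275 and 0.267). Without the second knockdown library, the one at 12.9 CPM, the log2 fold change fell to 1.67 (0.375). With the block, Fosl2 was called too (-0.42, adjusted p = 0.0414), 2 of 10 where 14.4% of all genes were. Jun was at 60.2 and 30.9 CPM against 103 CPM in both controls, a log2 fold change of -1.18 ± 0.397 that was not called (0.21). Of the lists, MYC targets, AP-1 targets and other immediate-early genes had 0 called in either direction, and with the block 4, 5 and 6 rose and 0, 1 and 0 fell, where 8.76% of all genes rose and 5.63% fell. Of EGR1 targets Pdgfa fell by 0.79 (adjusted p = 0.0191), and with the block 1 leucine zipper partner and 1 gene of the ternary complex list were higher. The epithelial markers summed to 414 to 492 CPM against 252 to 271 CPM in these groups and the leukocyte markers to 27.7 to 32.5 CPM against 8.69 to 10.4 CPM. Csf1r, Cd68 and the smooth muscle gene Myh11 were the markers called, all higher, and with the block 3 smooth muscle, 2 endothelial, 2 leukocyte and 2 epithelial markers were higher and 2 fibroblast markers lower. The part of these markers was not tested.

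**Figure D5:**
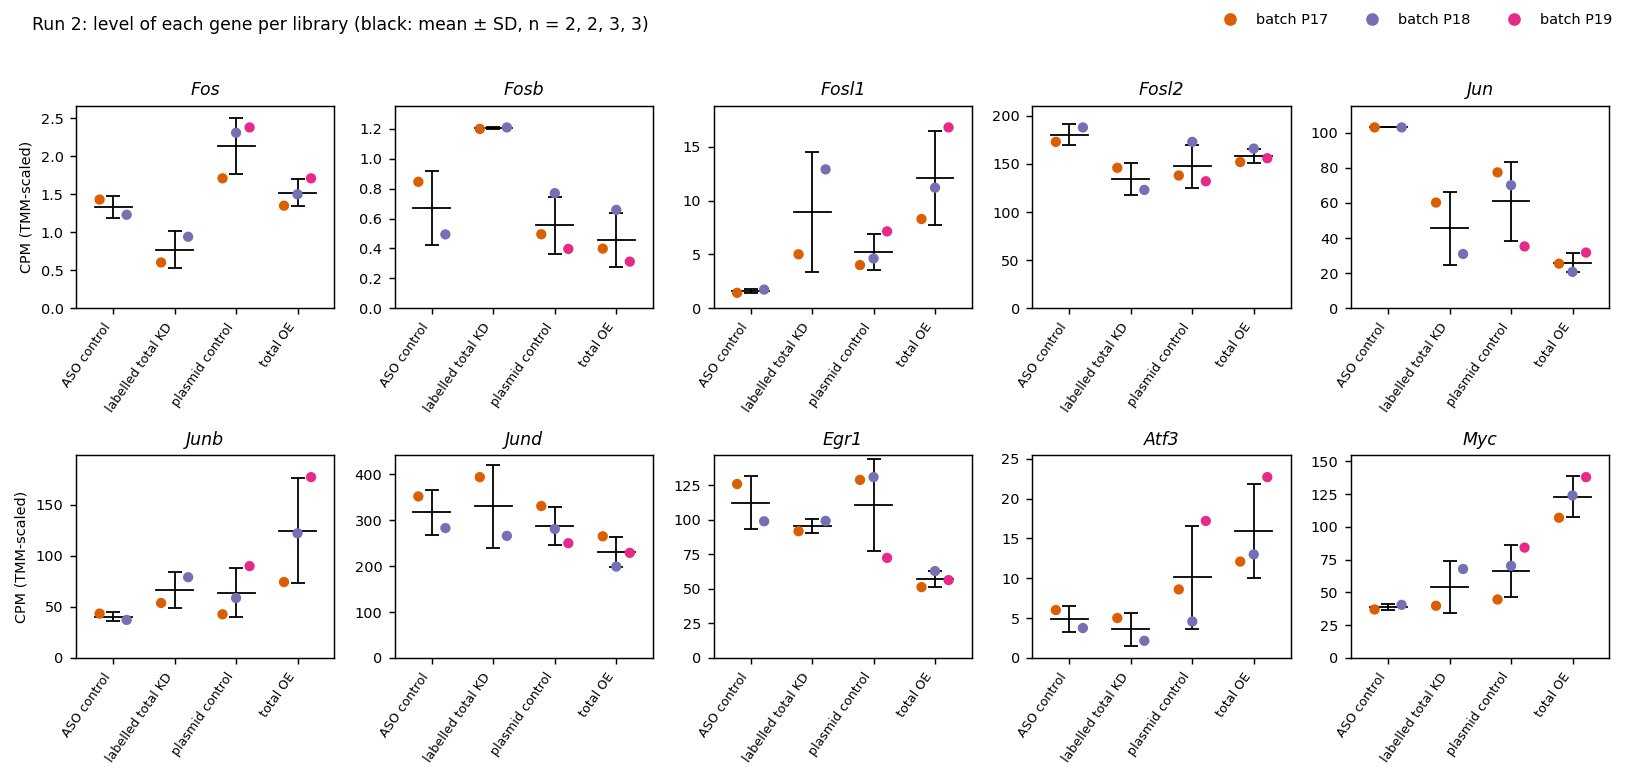
CPM of each gene in the 10 libraries of run 2 on linear axes from 0, one panel per gene, with points coloured by batch and black lines at the group mean and 1 SD (n = 2, 2, 3 and 3). Myc lies at 107 to 138 with total CASC15 overexpression (total OE) and at 44.6 to 84.2 with the plasmid control, and Fosl1 lies at 4.01 to 7.14 with the plasmid control and at 1.43 and 1.73 with the oligonucleotide control.

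The 2 kinds of control were also compared in run 2. They differ in cargo and in delivery, which cannot be told apart, and only the plasmid group holds a P19 library. By edgeR 0 of 10 genes were called, where 1.18% of all genes were, with an unadjusted p under 0.05 for 2 of the 10 and 9.41% of all genes. DESeq2 called 1, Fosl1, where it called 2.13% of all genes, and the fit with the block also called Fosl1 alone, where 2.99% of all genes were. Fosl1 was at 4.01, 4.62 and 7.14 CPM with the plasmid and 1.43 and 1.73 CPM with the oligonucleotide, a log2 fold change of 1.73 ± 0.485 (adjusted p = 0.243, or 0.0224 with the block). Myc had 0.78 ± 0.286 (adjusted p = 0.446), with no overlap between the groups. The P19 plasmid library was the highest for both genes, and without P19 the log2 fold changes were 1.44 (adjusted p = 0.355) and 0.56 (0.74). Of the lists, only EGR1 targets had a called gene, Pdgfa (-0.7, adjusted p = 0.0171), and with the block 2 immediate-early genes, 1 AP-1 target and 1 MYC target were higher and 2 EGR1 targets and 1 epithelial marker lower.

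Across the 20 libraries of run 3, the gene most like each factor was found by the correlation of log2 CPM over 10174 genes, as a description, since these libraries share conditions and batches. Egr1 was most like Nab2 (Pearson r = 0.969), the corepressor gene that EGR1 activates, and then Zranb3 (0.968). Junb was most like Ier3 (0.96), itself an immediate-early gene, and Pcolce (0.952). Myc was most like Tmem254a (0.985) and Anxa2 (0.983), Fosl1 most like Kdelr2 (0.962) and Ybx1 (0.96), and Fosl2 most like Gpc4 (0.966) and Irgm2 (0.961). Jun was nearest to Lhfpl2 (0.935) and Tanc1 (0.932), Jund to Slc15a4 (0.936) and Dcxr (0.878), and Fos to Srsf2 (0.876) and Cep135 (0.861). The low genes Atf3 and Fosb had no close match, with Srp14 at 0.774 and Fbxo33 at 0.764 for Atf3 and Zfp810 at 0.763 and Rabl2 at 0.743 for Fosb. Among the 10 themselves, Fosl1 and Myc were the most alike pair (r = 0.85), followed by Junb and Myc (0.79), while Fosl2 and Egr1 were the most opposed (-0.91), and Jun was opposed to both Junb and Myc (-0.77 each).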

How the data were processed

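RNA of 30 libraries in 9 groups was analysed from a deposited table of expected counts, made by the authors with STAR 2.7.11b and RSEM 1.3.1, per the submitters' processing notes. These notes name the builds GRCm39 and mm10 with no role, and annotation and strandedness are not given in the sources used here. RSEM divides reads shared between genes, so values need not be whole. Symbols and exon lengths came from GENCODE M21 by Ensembl identifier, which matched 51486 of 78334 identifiers. The 10 genes are ENSMUSG00000021250.14 (Fos), ENSMUSG00000003545.4 (Fosb), ENSMUSG00000024912.7 (Fosl1), ENSMUSG00000029135.11 (Fosl2), ENSMUSG00000052684.6 (Jun), ENSMUSG00000052837.8 (Junb), ENSMUSG00000071076.9 (Jund), ENSMUSG00000038418.9 (Egr1), ENSMUSG00000026628.14 (Atf3) and ENSMUSG00000022346.18 (Myc).

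Expected counts were rounded, filtered with filterByExpr (minimum count 10, minimum total 15), scaled with TMM and fitted per run with edgeR 4.0.16 (quasi-likelihood, robust, a coefficient per group; R 4.3.3) in 11 comparisons, two-sided, with Benjamini-Hochberg adjustment over all genes of a comparison. CPM use the filtered library size times the TMM factor. SE is the log2 fold change over the square root of F. Totals were 15771490 to 30362047 per library, and low counts limit Fosb, Fosl1, Fos and Atf3. Simulated counts with known changes were used to test the scripts.

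Replicate numbers stand for a labelled batch, which pairs libraries. Deviations from group means correlated between libraries of the same batch with means of 0.168 to 0.499 and, in run 3, a lowest pair of 0.0436. Fits without the block are the main ones, and the blocked value is given where it changes a call of the 10 genes. Within-batch ratios are log2 of CPM + 0.5. Alternatives were the block, DESeq2 1.42.0, RLE size factors, no filter, a mean CPM filter of 1, only the groups compared, leaving out each library, and, chosen after seeing the data, leaving out batch P19.

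Named list genes were up to 4 called per list with the largest change and a mean of at least 5 CPM; the 2 genes most like each factor had the highest r of log2 CPM (prior count 2). The members and lists were chosen with earlier results of these data known. Libraries were grouped by the library name, since some titles number the target upward. Protein sequences were not used here.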

Additional observations from a re-analysis of the deposited data

Results flagged for a closer look

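In groups of 4 libraries, a value was noted when its gap to the nearest library, as a share of the group's range, was above Dixon's critical value, which chance gives in about 1 in 20 groups. Of 50 sets, the 10 genes in the 5 run 3 groups, 5 had such a value, and all 5 were in batch P19. Egr1 in long CASC15 knockdown under angiotensin II was at 50.4 CPM in P19 and 87.4 to 88.5 CPM in the others. Fos in the same group was at 1.1 CPM against 2.81 to 3.09 CPM. Junb under PDGF-BB was at 84.6 CPM against 126 to 130 CPM, and in untreated controls at 51.1 CPM against 80.7 to 85.8 CPM. Myc in controls under angiotensin II was at 92.1 CPM against 81.7 to 82.8 CPM. P19 held the highest Myc and the highest Atf3 value in 5 of 5 groups and the lowest Junb value in 3 of 5. Without P19, 5 of 10 genes were called in untreated knockdown, 7 under angiotensin II and 6 with PDGF-BB, where 40%, 39.9% and 48.9% of all genes were called, against 25%, 26.7% and 43.6% with P19.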

How the results depend on the processing

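Of 110 results for single genes (10 genes in 11 comparisons), 23 were called, 20 of these were called under every alternative run, and 0 reversed. The 3 that lost the call in some setting were Fosl1 in the libraries labelled total CASC15 knockdown (also with a mean CPM filter of 1, adjusted p = 0.0576) and Fos and Myc with PDGF-BB against angiotensin II (Myc also without the filter, 0.0517). A further 17 were called in some setting only. The call count of the 10 genes moved in run 2. For the plasmid against the oligonucleotide control it went from 0 to 1 with DESeq2 (2.13% of all genes), 5 without the filter (3.7%) and 1 with the replicate block (2.99%). For the libraries labelled total knockdown it went from 1 to 0 with the CPM filter (1.46%), 3 without a filter (4.44%) and 2 with the block (14.4%), and 0 to 1 when a library was left out. For overexpression it went from 0 to 3 with DESeq2 (4.71%), 5 without a filter (4.56%), 6 with the block (17.7%) and 2 without P19 (5.57%), and 0 to 3 when a library was left out.

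Counts over all genes moved in the same comparisons. For plasmid against oligonucleotide, 181 genes were called, and 343 with DESeq2, 1106 without a filter, 101 with only the groups compared, 459 with the block and 67 to 277 when a library was left out. For the labelled total knockdown, 317 were called, and 661 with DESeq2, 190 with the CPM filter, 1325 without a filter, 1079 with only the groups compared, 2209 with the block and 4 to 188 with a library left out. For overexpression, 253 were called, and 732 with DESeq2, 1363 without a filter, 66 with only the groups compared, 2721 with the block, 844 without P19 and 86 to 867 with a library left out. In run 3 the block gave 6126 genes for untreated long CASC15 knockdown (3783 without it) and 6238 under angiotensin II (4033), and leaving out P19 gave 6062 for the former. Angiotensin II in control cells went from 0 to 1 gene with DESeq2 and 1 with only the groups compared, and the interaction from 0 to 2 and 1. Among the 10 genes, the block changed no call other than those given in the report. The cause of these shifts was not tested. With 2 or 3 libraries per group, run 2 bounds single changes loosely, and Fosb and Fosl1 rest on few counts in untreated cells.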
